A study of Mus musculus with 6 samples.

Results

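The GIMAP genes (GTPases of immunity-associated proteins) were examined in splenic Tregs after induced deletion of Zfp335, a zinc finger transcription factor. The members were the rows of the gene count table with the symbols Gimap1, Gimap3, Gimap4, Gimap5, Gimap6, Gimap7, Gimap8 and Gimap9, which are 8 of its 32285 rows, and all 8 were among the 17307 genes that passed the expression filter. Bulk RNA-seq had been performed on CD4+CD25+ cells sorted from spleens of C57BL/6 mice, with 3 libraries labeled WT and 3 labeled KO. The KO animals were ERCre Zfp335fl/fl mice. The controls were called wild-type littermates in the labels and ERCre mice with unfloxed Zfp335 in the methods of the study. ERCre is a Cre recombinase joined to a mutant estrogen receptor domain, and it enters the nucleus after tamoxifen. Per those methods, such mice received 100 μL of tamoxifen at 10 mg/mL on days 1, 3 and 5, starting at 6 weeks of age, and were killed on day 7. The promoter that drives ERCre was not named, so the deletion cannot be taken as limited to Tregs. It was not stated whether each library came from a separate mouse, so the p-values measure only the spread between these libraries, which may be technical in part.

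GIMAP proteins are GTP-binding proteins of lymphocytes, many of which sit on intracellular membranes such as those of lysosomes and the endoplasmic reticulum. Their genes lie side by side in a single cluster in mammals. They are best known for the survival of resting T cells, and loss of Gimap5 in mice and rats leaves few peripheral T cells. In the GENCODE annotation of GRCm38, the members spanned 123.618 kb of chromosome 6, from 48647234 to 48770851. Their order was Gimap8, Gimap9, Gimap4, Gimap6, Gimap7, Gimap1, Gimap5 and Gimap3, and only Gimap6 and Gimap3 were on the minus strand.

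The bases upstream of the start are shown for the members that passed the test between the groups, Gimap6 (higher in KO) and Gimap8, Gimap4 and Gimap1 (lower in KO), and for Gimap5, which carried the same sequence word as Gimap6. The sequences are the 250 bases before the RefSeq start in GRCm38.p6, 5′ to 3′ on the strand of the gene, and for Gimap8 they belong to the first of its 2 listed starts. Capitals mark the word GGAAGT, a core bound by ETS factors, or ACCACA, the reverse complement of the RUNX core TGTGGT.
Gimap6, chr6:48708245-48708494, minus strand: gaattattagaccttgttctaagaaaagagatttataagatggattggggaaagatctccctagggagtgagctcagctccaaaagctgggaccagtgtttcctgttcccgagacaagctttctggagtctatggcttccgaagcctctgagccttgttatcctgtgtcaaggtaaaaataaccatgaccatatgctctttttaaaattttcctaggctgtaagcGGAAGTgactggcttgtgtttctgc
Gimap8, chr6:48646984-48647233, plus strand: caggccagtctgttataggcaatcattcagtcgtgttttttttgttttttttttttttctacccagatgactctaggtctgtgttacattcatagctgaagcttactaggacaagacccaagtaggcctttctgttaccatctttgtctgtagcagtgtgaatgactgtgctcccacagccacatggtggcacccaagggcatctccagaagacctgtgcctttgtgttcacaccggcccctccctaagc
Gimap4, chr6:48684328-48684577, plus strand: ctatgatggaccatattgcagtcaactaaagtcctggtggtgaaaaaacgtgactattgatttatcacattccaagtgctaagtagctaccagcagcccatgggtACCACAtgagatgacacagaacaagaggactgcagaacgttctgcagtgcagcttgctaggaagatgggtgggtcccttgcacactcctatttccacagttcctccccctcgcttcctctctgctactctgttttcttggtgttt
Gimap1, chr6:48738797-48739046, plus strand: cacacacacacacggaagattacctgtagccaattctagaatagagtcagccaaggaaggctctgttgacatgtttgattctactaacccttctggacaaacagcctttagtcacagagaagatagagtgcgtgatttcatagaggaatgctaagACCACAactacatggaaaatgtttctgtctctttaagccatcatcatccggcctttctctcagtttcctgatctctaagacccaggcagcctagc
Gimap5, chr6:48745947-48746196, plus strand: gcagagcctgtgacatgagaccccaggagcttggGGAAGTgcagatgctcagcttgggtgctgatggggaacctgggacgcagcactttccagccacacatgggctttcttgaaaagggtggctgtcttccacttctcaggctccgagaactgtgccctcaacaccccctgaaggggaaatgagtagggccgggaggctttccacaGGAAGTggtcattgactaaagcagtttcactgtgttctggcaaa
The word GGAAGT began 25 bases before the start of Gimap6 and began 216 and 44 bases before the start of Gimap5. On either strand, it was found in these 2 of the 8 genes and in 19.7% of all 32851 upstream windows of the same length. The RUNX word TGTGGT was found on the opposite strand of Gimap4, Gimap7 and Gimap1, and in 14.0% of all windows on either strand. The window of Gimap7, which did not pass the test, is not shown. The FOXO word TGTTTAC occurred upstream of Gimap3 (3.17% of all windows), and the E-box word CAGGTG upstream of Gimap9 (17.2%). The GATA word AGATAA (9.99% of all windows) and the AP-1 word TGACTCA (4.46%) were not found in the windows of the members, and neither window of Gimap8 held any of these 6 words. No word searched overlapped another in these windows. The matches describe letters only, the words were chosen with the values of the members known, and binding was not measured here.

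The library totals were between 133283969 and 209041812 counts. Zfp335 fell from a mean of 120.1 ± 4.67 CPM (SD, n = 3) in WT to 14.8 ± 0.451 CPM in KO, where CPM is the count of a gene scaled to a common library size after TMM. Cd4, Foxp3, Il2ra and the other Treg markers were present in all libraries, with a summed level of 3600 to 3636 CPM in WT and 3668 to 3725 CPM in KO. Only Ctla4 (means of 410.3 CPM in WT and 645.3 CPM in KO) and Cd4 (687.4 and 702.9 CPM) had higher means in KO. Foxp3, Il2ra and the remaining markers had lower means, so most of these markers did not share the rise of the sum. RNA of other cells was unequal between the groups. The 27 tested marker genes were those of B cells, myeloid cells, neutrophils, red cells, CD8 T cells, NK cells and endothelium. Of these markers, 18 were lower and 0 were higher in KO by edgeR's test, against 12.1% and 12.0% of all tested genes. Among the markers with a higher value, only Csf1r, a macrophage gene, had an unadjusted p under 0.05 (0.0231, edgeR). Xist, which silences an X chromosome in female cells, was 0.187 to 0.424 CPM in WT and 123.9 to 144.7 CPM in KO, whereas each of 4 genes of the Y chromosome had counts in every library. Of these, Ddx3y (98.3 to 105.2 CPM in WT, 76.6 to 80.0 CPM in KO), Kdm5d (42.3 to 44.7 and 34.9 to 36.5 CPM) and Uty (17.2 to 17.6 and 11.5 to 12.2 CPM) were lower in KO by edgeR's test, and Eif2s3y (44.1 to 49.7 and 45.3 to 48.1 CPM) was not called. Whether material of both sexes was pooled in the KO libraries was not given in the sources used here. Whatever difference in sex Xist marks cannot be told apart from the genotype in these libraries.

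The members of the cluster did not move together in KO Tregs. Gimap6, whose product is linked with autophagy, rose 1.39-fold. Gimap8 fell to 0.809 of its WT level, Gimap1 to 0.881 and Gimap4 to 0.910, and the other 4 members did not pass the test. At an adjusted p under 0.05, 4 of 8 members were called, 1 higher and 3 lower. Of all tested genes, 24.1% were called, 12.0% as higher and 12.1% as lower. With the cutoffs of the study (1.5-fold, p under 0.05 and adjusted p under 0.1), 0 of 8 members and 6.95% of tested genes were called, since no member reached a 1.5-fold difference. The study stated those cutoffs for DESeq2 and Tregs of Foxp3Cre mice, and they were applied here to the edgeR fit. The unadjusted p from edgeR was under 0.05 for 8 of 8 members and for 34.7% of tested genes. The WT and KO values did not overlap in 7 of 8 members, against 38.3% of tested genes. The members are well expressed, above 77.3% to 99.3% of tested genes in average level, and of the 3925 genes at least as high as the lowest member 35.7% were called. For the unadjusted p and the overlap, the shares given cover all tested genes, many of them less expressed, and were not computed at this level.

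**Figure D1:**
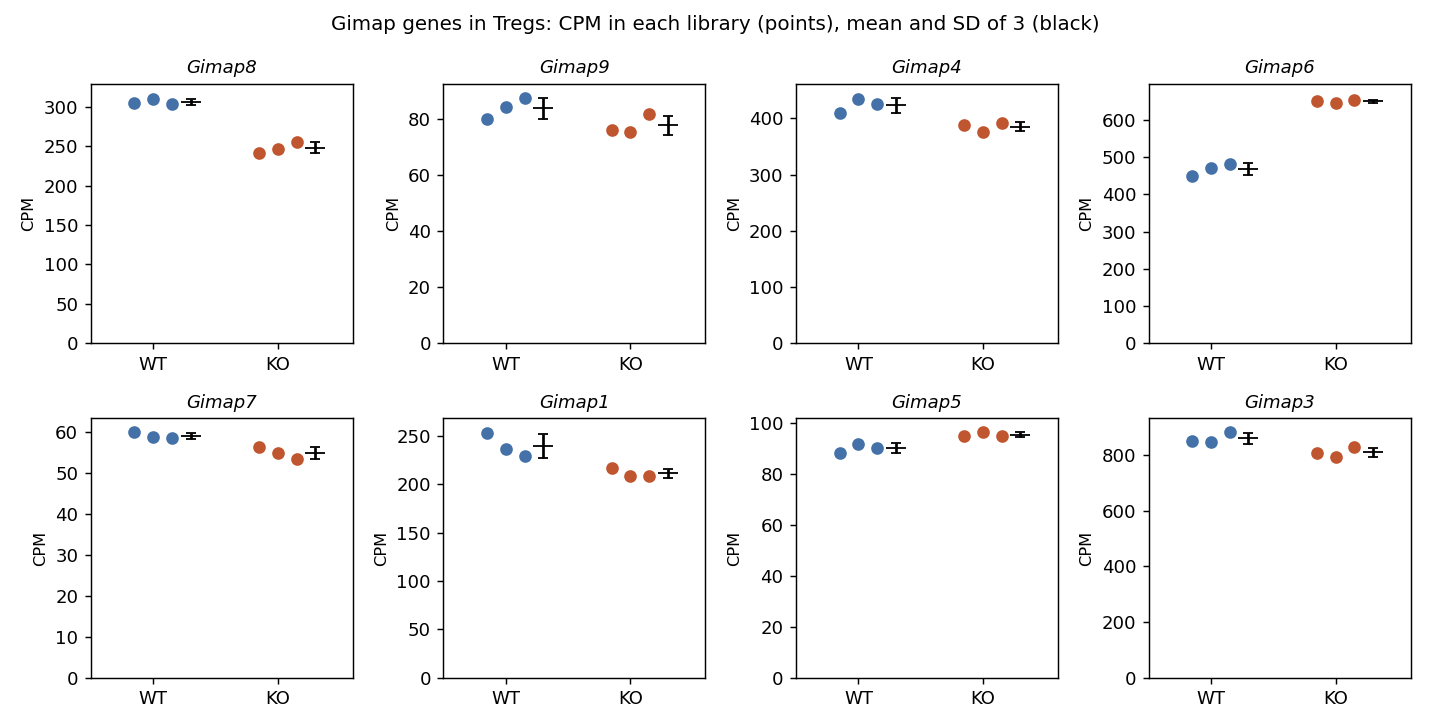
CPM of the 8 Gimap genes (y axis, from 0) in the 3 WT and 3 KO libraries, in their order on the chromosome. Each point is 1 library, and the black bar is the mean with the SD of 3. The 3 KO libraries of Gimap6 sit between 646.9 and 654.1 CPM, above all WT libraries, and those of Gimap8 between 241.8 and 255.9 CPM, below all WT libraries.

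Gimap6 binds proteins of the ATG8 family, which act in autophagosome formation. Its level was 450.6, 469.8 and 483.2 CPM in WT replicates 1, 2 and 3, and 652.5, 646.9 and 654.1 CPM in KO replicates 1, 2 and 3. The groups were far apart, and the KO libraries were closer to each other (SD 3.76 CPM) than the WT libraries (SD 16.4 CPM). On the log2 scale, KO exceeded WT by 0.48 ± 0.033 (SE; adjusted p = 3.18e-07, quasi-likelihood test of edgeR). Among the 3925 genes at least as high as the lowest member, 2.06% had a log2 fold change at or above this value. By 50-base stretches of its transcripts, 0.170% were shared with other genes and none with other members.

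Gimap8 encodes the largest protein of the family, with more than 1 GTP-binding domain. It stood at 304.8, 310.6 and 304.5 CPM in WT and at 241.8, 246.7 and 255.9 CPM in KO. All KO libraries were below all WT libraries, and the log2 fold change, -0.31 ± 0.033 (SE; edgeR adjusted p = 1.79e-05), was the lowest of the family. Of the same 3925 genes, 2.06% had a log2 fold change at or below that of Gimap8.

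Gimap1 is required for the survival of mature T and B cells in mice. Its level was 253.1, 236.0 and 229.5 CPM in WT and 217.1, 208.4 and 208.1 CPM in KO, without overlap. The log2 fold change was -0.18 ± 0.039 (SE; edgeR adjusted p = 0.00448). Gimap1os, an antisense gene, overlaps 36.0% of the exon bases of Gimap1, and the strand setting of the counting was not given in the sources used here. Gimap1os itself was 10.2, 11.4 and 13.0 CPM in WT and 9.91, 10.1 and 9.94 CPM in KO (log2 fold change -0.20, edgeR adjusted p = 0.105), far below Gimap1 in both groups. For Gimap1os, the log2 fold change was -0.28 without WT replicate 1 (edgeR adjusted p = 0.0106) and -0.11 without WT replicate 3 (adjusted p = 0.322).

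Gimap4 has been linked with the pace of T cell death after a death signal. Its level was 409.1, 435.2 and 426.5 CPM in WT and 388.1, 376.0 and 391.8 CPM in KO. The KO libraries were again all below the WT libraries, but by less than for Gimap8, at -0.14 ± 0.034 on the log2 scale (SE; edgeR adjusted p = 0.0106). The call was lost without WT replicate 2 (-0.12, adjusted p = 0.0752) and without KO replicate 2 (-0.12, adjusted p = 0.0841).

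The remaining members did not pass the test. Gimap3, an endoplasmic reticulum relative of Gimap5, was 850.9, 845.8 and 882.2 CPM in WT and 806.0, 793.2 and 826.6 CPM in KO (log2 fold change -0.09, 95% interval -0.16 to -0.02, adjusted p = 0.0655, edgeR). Gimap7, a GTPase, was 60.1, 58.9 and 58.7 CPM in WT and 56.4, 55.0 and 53.6 CPM in KO (log2 fold change -0.11, 95% interval -0.19 to -0.03, adjusted p = 0.0542, edgeR). Both were lower in every KO library than in any WT library. Gimap9 was 79.9, 84.2 and 87.4 CPM in WT and 76.2, 75.3 and 81.7 CPM in KO (log2 fold change -0.11, 95% interval -0.20 to -0.01, adjusted p = 0.1001, edgeR). It was the only member whose groups overlapped, through KO replicate 3 and WT replicate 1.

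Gimap5, the lysosomal member whose loss depletes peripheral T cells, was the only member other than Gimap6 with a higher mean in KO. It was 88.2, 92.0 and 90.3 CPM in WT and 95.01, 96.7 and 95.1 CPM in KO. The groups did not overlap, but the difference of 0.08 on the log2 scale (95% interval 0.01 to 0.16, adjusted p = 0.0966, edgeR) did not pass the test. Gimap5 shares 4.53% of its 50-base stretches with Gimap3, and Gimap3 shares 7.52% with Gimap5, so reads from these stretches may have been split or dropped.

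**Figure D2:**
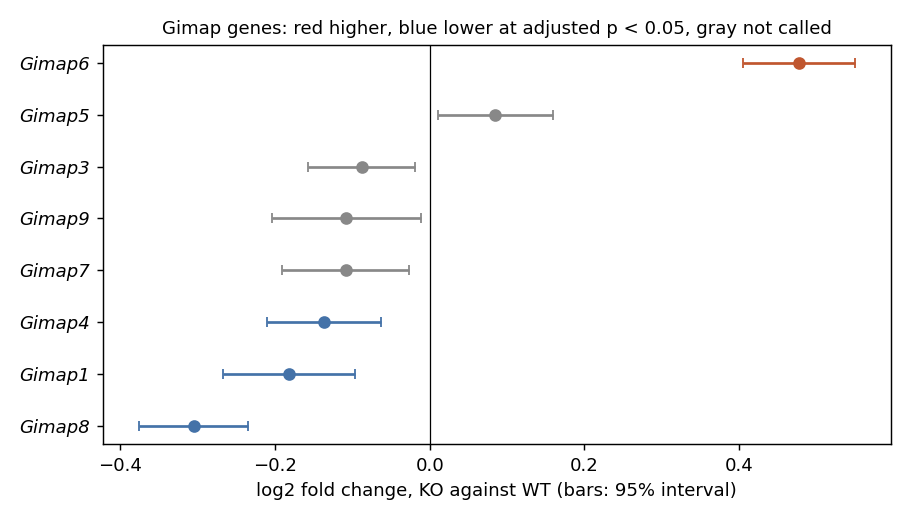
Log2 fold change of KO against WT (x axis) for each Gimap gene, with its 95% interval from edgeR, not adjusted for the number of genes tested. At an adjusted p under 0.05, red genes were higher and blue genes lower in KO, and gray genes were not called. Gimap6 stands alone at 0.48, and Gimap8 at -0.31 is the lowest.

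The summed level of the 8 genes overlapped between the groups while the share of Gimap6 did not. The sum was 2497, 2533 and 2562 CPM in WT and 2533, 2498 and 2567 CPM in KO, so the ranges overlapped. Without Gimap6, the sum was 2046, 2063 and 2079 CPM in WT and 1881, 1851 and 1913 CPM in KO, which did not overlap. Gimap6 accounted for 18.0%, 18.6% and 18.9% of the counts of the family in WT and for 25.8%, 25.9% and 25.5% in KO. Within a library, the ratio of Gimap6 to Gimap8 counts was 1.48, 1.51 and 1.59 in WT and 2.70, 2.62 and 2.56 in KO, a measure that does not depend on the scaling between libraries. A share of the sum falls for other members when Gimap6 rises, so the shares are not independent of each other.

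**Figure D3:**
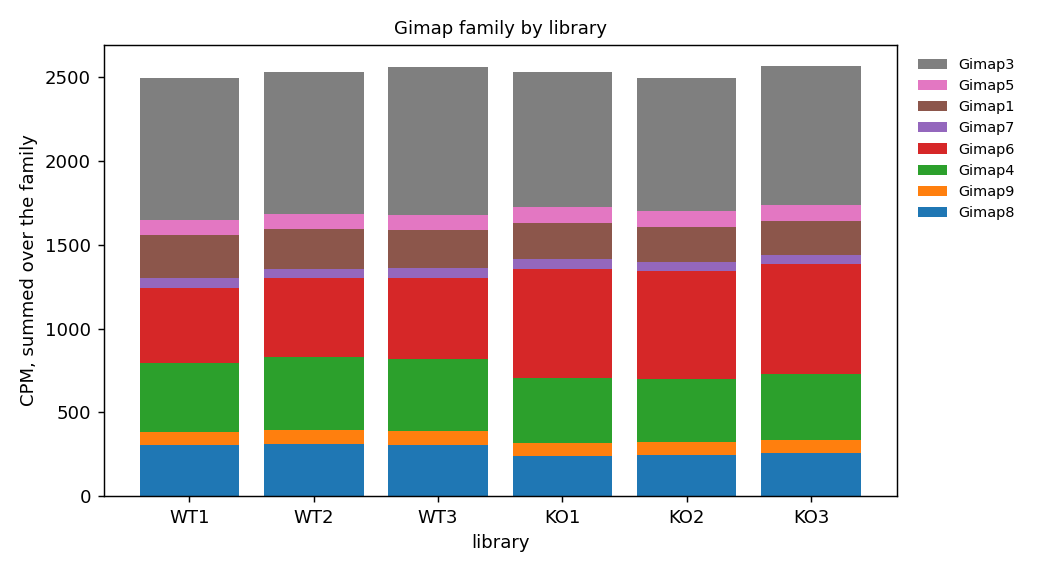
CPM summed over the Gimap family (y axis) in each of the 6 libraries, with each gene as a colored segment. The height of the bars is between 2497 and 2567 CPM in every library, while the segment of Gimap6 is larger in the 3 KO libraries.

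Levels between genes were compared as CPM per kb of annotated exon. In WT, Gimap3 was the most abundant at 333.6 ± 7.64 CPM per kb (SD, n = 3), followed by Gimap4 at 230.6 ± 7.24 and Gimap6 at 133.8 ± 4.68. Next came Gimap8 at 82.9 ± 0.936 and Gimap1 at 78.0 ± 3.96 CPM per kb, whose WT libraries overlapped, as their KO libraries did (67.1 ± 1.93 and 68.7 ± 1.67). Gimap9 at 51.0 ± 2.28, Gimap7 at 25.5 ± 0.317 and Gimap5 at 21.7 ± 0.466 CPM per kb were the lowest. In KO, Gimap6 was at 186.3 ± 1.08 CPM per kb and came nearer to Gimap4, at 209.8 ± 4.50, without overlap. Gimap7 and Gimap5 were apart in WT but overlapped in KO, at 23.6 ± 0.601 and 23.0 ± 0.223. Scaled by the longest transcript instead, Gimap1 moved ahead of Gimap8 in WT. Its mean was also just above that of Gimap6, at 148.4 against 147.2 CPM per kb, but the WT libraries of Gimap1 and Gimap6 overlapped. In KO, the order of the 8 genes was the same on both scales.

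Genes around the cluster were examined in the same fit. The table held 30 genes within 500000 bases of the cluster, of which 19 were tested, 5 were higher and 1 was lower in KO, with a median log2 fold change of 0.01 against -0.00420 over all tested genes. Of all tested genes, 24.1% were called, 12.0% as higher and 12.1% as lower. The calls near the cluster were mostly on the higher side, but they rest on few genes and were not stable, as given below. The higher genes were Rarres2, a chemoattractant gene counted at less than 1 CPM (0.319 to 0.378 CPM in WT, 0.550 to 0.940 CPM in KO, log2 fold change 1.13), the RNA-binding protein gene Igf2bp3 (0.49), the splicing factor gene Tra2a (0.24), Malsu1 (0.22) and Krba1 (0.11). Zfp467, a zinc finger gene, was lower at -0.12 on the log2 scale, with an adjusted p of 0.0499 from edgeR. The number called dropped from 6 to 3 without WT replicate 2 and without each of KO replicates 1, 2 and 3. Zfp467 lost its call when any 1 of the 6 libraries was left out, Krba1 without WT replicate 2 (adjusted p = 0.122, edgeR) and without each KO replicate, Malsu1 without WT replicate 2 (0.0547) and KO replicates 1 and 2 (0.107 and 0.0849), and Rarres2 without KO replicate 3 (0.0544). Krba1 was also not called with upper-quartile factors (adjusted p = 0.0641, edgeR), library size only (0.128) or a GC offset without (0.0583) or with (0.0772) the replicate block. Zfp467 was also not called with RLE size factors (adjusted p = 0.0510, edgeR), no low-count filter (0.0725), limma-voom (0.0515) or the replicate block (0.0598). The readthrough gene Gm28053, which overlaps Gimap7, Gimap1 and Gimap5, had no counts of its own and could not be analysed.

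**Figure D4:**
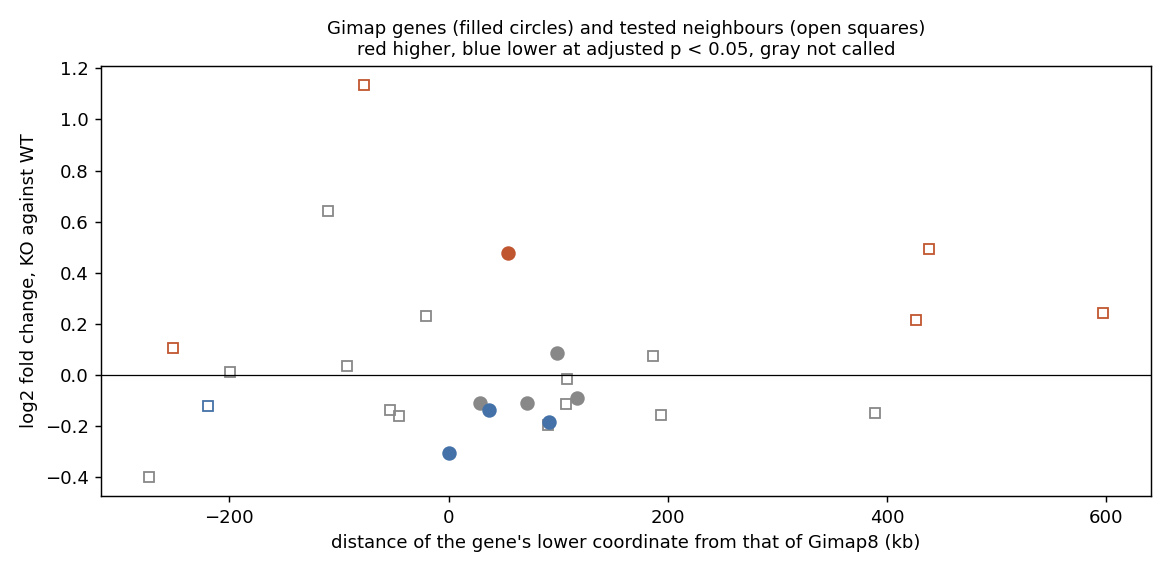
Log2 fold change of KO against WT (y axis) for the 8 Gimap genes (filled circles) and the 19 tested neighbors (open squares), by distance from Gimap8 along the chromosome in kb (x axis). Red is higher and blue lower at an adjusted p under 0.05, and gray is not called. Within the cluster, Gimap6 is the only gene called higher, and it lies beside Gimap4, which is lower, and Gimap7, which is not called.

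Genes whose products have been linked with GIMAP proteins were examined next. GIMAP proteins have been reported to bind or modulate BCL2 family proteins, GSK3 kinases and the ATG8 family. Of 13 such genes, all tested, 7 were higher and 1 was lower in KO, with a median log2 fold change of 0.16 (all tested genes, -0.00420). Of all tested genes, 12.0% were called as higher and 12.1% as lower. Of the 3925 genes at least as high as the lowest member, 35.7% were called. The largest increases were in Map1lc3a (0.78, standard error 0.092) and Gabarapl1 (0.53, standard error 0.055), both of the ATG8 family. In that family, the more abundant Map1lc3b was also higher (222.8 to 226.7 CPM in WT, 286.1 to 289.7 CPM in KO, log2 fold change 0.36). Gabarap had a lower mean in KO and was not called (log2 fold change -0.05, adjusted p = 0.415, edgeR). The anti-apoptotic Bcl2 was 216.3 to 224.4 CPM in WT and 245.6 to 248.3 CPM in KO (log2 fold change 0.16), and the pro-apoptotic Bak1 was lower at -0.16 on the log2 scale. Bax, which is also pro-apoptotic, moved the other way, from 94.5 to 118.7 CPM in WT to 142.4 to 148.8 CPM in KO (log2 fold change 0.48, edgeR adjusted p = 0.00166). Of the other listed BCL2 family genes, Bcl2l1 was higher (log2 fold change 0.25), and Mcl1 (-0.01) and Bcl2l11 (0.07) were not called. Bak1 lost its call without WT replicate 2 (adjusted p = 0.118, edgeR), WT replicate 3 (0.0783), KO replicate 2 (0.149) and KO replicate 3 (0.195). Gabarapl2, which encodes a reported partner of Gimap6, was 44.0 to 45.2 CPM in WT and 45.6 to 47.5 CPM in KO (adjusted p = 0.315, edgeR).

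Of 13 genes of resting, recirculating T cells, 9 were higher and 2 were lower in KO, with a median log2 fold change of 0.20. The shares of all tested genes, for comparison with this list and the activated list below, were 12.0% higher and 12.1% lower. Of the 3925 genes at least as high as the lowest Gimap member, 35.7% were called. All 13 genes of the resting list reached that level, whereas some genes of the activated list did not. Ccr7, the lymph node homing receptor, rose from 307.1 to 317.9 CPM in WT to 580.6 to 603.6 CPM in KO (log2 fold change 0.91, edgeR adjusted p = 5.24e-10), and Btg2, an antiproliferative gene, rose by 0.24 on the log2 scale. Id3, an inhibitor of E protein transcription factors, fell by 0.24 on the log2 scale. Of 14 genes of activated Tregs or cycling cells, 5 were higher and 5 lower, with a median log2 fold change of -0.00999. This split was not stable: it was 2 higher and 6 lower with library size only, 3 and 6 with upper-quartile factors or with a GC offset and the replicate block, 2 and 5 without WT replicate 2, KO replicate 1 or KO replicate 2, and 3 and 5 without KO replicate 3. Il10 (0.93) and Tnfrsf4 (0.34) were the highest of these. Cxcr3 (-0.49) and the proliferation marker Mki67 (-0.40) were the lowest, and Mki67 lost its call without WT replicate 3 (adjusted p = 0.110, edgeR) and with no low-count filter (0.0545).

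**Figure D5:**
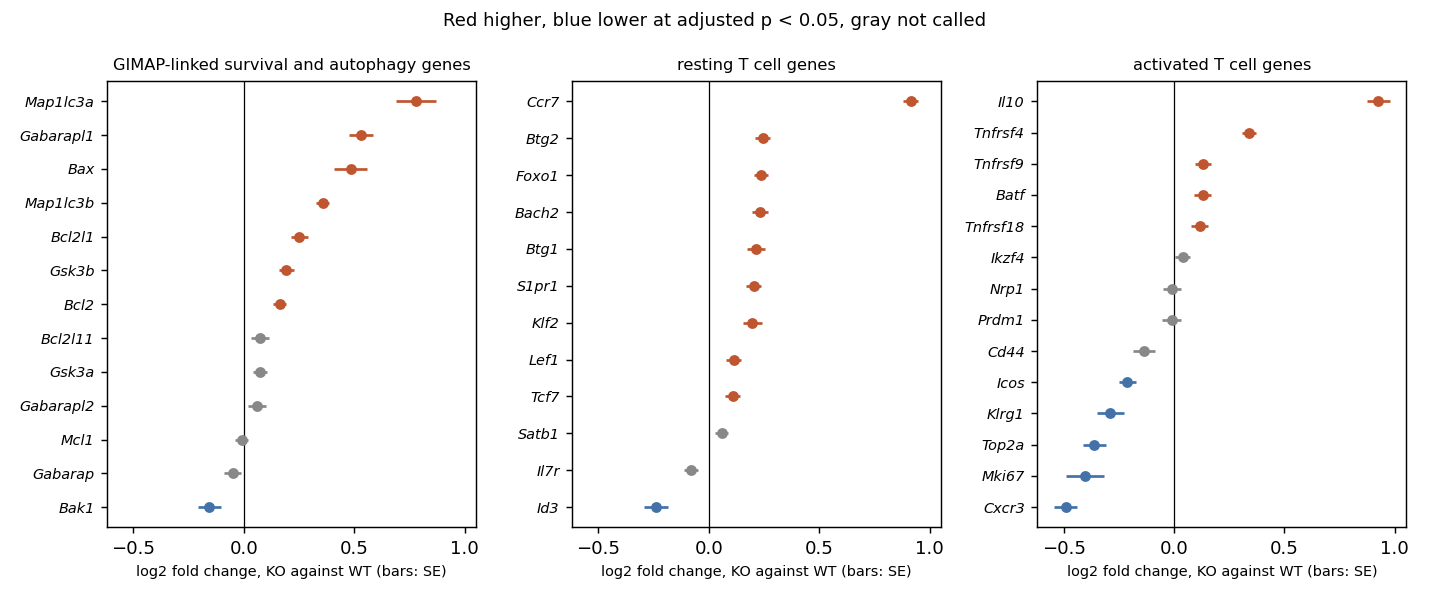
Log2 fold change of KO against WT (x axis, bars are standard errors) for genes linked with GIMAP proteins, genes of resting T cells and genes of activated T cells. Red is higher and blue lower at an adjusted p under 0.05, and gray is not called. Map1lc3a (0.78), Ccr7 (0.91) and Il10 (0.93) lead the 3 lists.

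Some GIMAP genes are also used by B cells, other blood cells and endothelium, and in bulk RNA, fewer cells of a type and less RNA per cell cannot be told apart. All 5 B cell markers were lower in KO, with a summed level of 45.4 to 49.5 CPM in WT and 21.1 to 23.0 CPM in KO. The 4 neutrophil markers summed to 11.7 to 16.1 CPM in WT and 0.462 to 0.815 CPM in KO, and the 4 red cell markers to 26.4 to 30.9 CPM and 1.31 to 1.59 CPM. Of 5 myeloid markers 3 were lower, summing to 35.3 to 39.7 CPM in WT and 22.0 to 23.6 CPM in KO. The NK cell markers summed to 17.2 to 18.3 CPM in WT and 14.6 to 16.6 CPM in KO, with 1 of 3 lower. The CD8 T cell markers, with 0 of 2 called, summed to 8.34 to 9.71 CPM in WT and 8.62 to 8.65 CPM in KO. The endothelial markers summed to 1.54 to 2.16 CPM in WT and 1.38 to 1.64 CPM in KO, with Emcn at 0 in 4 of 6 libraries and 1 of 4 tested genes, Cdh5, lower. Cdh5 lost its call without WT replicate 2 (adjusted p = 0.125, edgeR), KO replicate 1 (0.0930) and KO replicate 2 (0.0678). The part of these cells in the differences of the Gimap genes was not tested. The Treg genes Foxp3 (-0.11) and Il2ra (-0.15) were lower and Ctla4 (0.65) was higher on the log2 scale in the same libraries. The lower call was lost for Foxp3 without KO replicate 1 (adjusted p = 0.0508, edgeR), 2 (0.0922) or 3 (0.0703), and for Il2ra without KO replicate 2 (0.0523).

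The genes outside the family whose pattern over the 6 libraries was most like the mean standardized log2 CPM of the 8 members were Siglech, Cryzl1, Srpk1, Snx8 and Slfn1, with Pearson's r of 0.996, 0.995, 0.994, 0.994 and 0.993 among 11070 candidate genes. Gimap6 and Gimap5 ran against this mean (r = -0.906 and -0.819), so it follows the 6 members with lower means in KO and not the member with the largest change. These correlations are a description over 6 libraries in 2 groups that share their genotype difference. All 5 had lower means in KO, at -0.997, -0.20, -0.18, -0.23 and -0.34 on the log2 scale. Only Snx8 was not called among them (adjusted p = 0.0734, edgeR), although it was called with library size only and with the GC offset. Cryzl1 lost its call without WT replicate 2 (adjusted p = 0.0965, edgeR), KO replicate 1 (0.0608) and KO replicate 2 (0.107). Siglech, a lectin gene of plasmacytoid dendritic cells, was 2.34 to 3.003 CPM in WT and 1.14 to 1.53 CPM in KO.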

How the data were processed

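Bulk RNA-seq libraries of splenic CD4+CD25+ cells (3 WT, 3 KO) were compared. The deposited table holds unnormalized counts by gene symbol in 32285 rows, and 40 rows carry a symbol that is already present. The submitters' processing notes name HISAT2, DESeq2 and mm10; the counting tool and its strand setting were not given in the sources used here. Groups and replicate numbers came from the sample titles. Counts were scaled by TMM and tested in edgeR 4.0.16 by its quasi-likelihood F-test (legacy=FALSE, robust dispersion) in R 4.3.3 on 17307 genes kept by filterByExpr, with Benjamini-Hochberg adjustment over all of them and calls at an adjusted p under 0.05. Standard errors were derived from the F statistic. Depth was between 133283969 and 209041812 counts. Replicate libraries differed by far more than counting error (chi-square per degree of freedom 11.0 to 49.2), so the spread between libraries, not counting, sets the precision. An exact permutation test of 3 against 3 libraries cannot go below p = 0.1, and none is reported.

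The members and gene lists were chosen with earlier results of these data known. The fit was checked on simulated counts with known changes, all of them larger than those of most members. The genes named were the 8 members, Zfp335, Gimap1os, up to 4 called genes per list (the 2 highest and the 2 lowest log2 fold changes), called neighbors (up to 6), and the 5 genes most like the mean of the members (average log2 CPM from 1 upward). For the marker lists of other cells, which are given by counts and sums, not all of these are named. One gene of the resting T cell list is counted with its list but is not reported by name or plotted here. Bax, Bcl2l1, Bcl2l11, Mcl1, Gabarap, Gabarapl2, Map1lc3b, Cd4, Csf1r, Emcn, Xist, Ddx3y, Kdm5d, Uty and Eif2s3y were named after their values were seen. Positions and lengths come from GENCODE vM21 (GRCm38, the same assembly as mm10), which matched 97.454% of symbols, and upstream sequences from RefSeq on GRCm38.p6, in which all 8 members were found. Alternatives were other scalings and filters, DESeq2 1.42.0, limma-voom 3.58.1, the legacy edgeR method, a GC offset, the replicate number as a block, counts divided by 4, the cutoffs of the study, and leaving out each library. No sample or column was left out.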

Additional observations from a re-analysis of the deposited data

How the results depend on the processing

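The direction of each of the 8 members and of Zfp335 (-3.07 to -3.00 on the log2 scale) was kept in all 19 alternative fits. Gimap6 (0.45 to 0.50), Gimap8 (-0.34 to -0.27) and Gimap1 (-0.22 to -0.14) were also called in all of them, and Gimap4 in 17 of 19. Gimap3 was called in 9, Gimap7 in 7, Gimap9 in 3 and Gimap5 in 1 of 19 fits, so their side of the threshold depends on the processing.

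The number of members called was 4 in the report, 7 with library size only (1 higher, 6 lower), 7 with a GC offset (2 higher, 5 lower), 0 with the cutoffs of the study, and 3 to 6 when 1 library was left out. Gimap3 was called with upper-quartile factors (-0.10), library size only (-0.12), without mitochondrial, ribosomal protein, haemoglobin and immunoglobulin genes (-0.0904), with at least 1 CPM in at least 3 libraries (-0.0931), DESeq2 (-0.0871), limma-voom (-0.0878), the GC offset (-0.10) and the GC offset with the replicate block (-0.10). Gimap7 was called with upper-quartile factors (-0.12), library size only (-0.14), without the same genes (-0.11), with at least 1 CPM (-0.11), the GC offset (-0.11), the GC offset with the replicate block (-0.11) and counts divided by 4 (-0.11). Gimap9 was called with library size only (-0.14) and the replicate block (-0.11), and Gimap5 with the GC offset (0.0868). The cause of these changes was not tested.

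With 1 library left out, log2 fold changes were -0.10 to -0.0685 for Gimap3, -0.16 to -0.12 for Gimap4 and -0.15 to -0.0777 for Gimap9. Gimap3 and Gimap9 were then called only without WT replicate 1. The number of genes called was 4170, 2740 to 4996 with 1 library left out (2740 without WT replicate 2), and 1203 with the cutoffs of the study. With library size only, 61.4% of called genes were lower in KO, against 50.1% in the report. With the cutoffs of the study, 1 gene each was called among the GIMAP-linked, resting, activated and neighboring genes. With 1 library left out, these lists had 7 to 8, 9 to 11, 7 to 11 and 3 to 7 genes called, and the markers of other cells 16 to 18.

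Replicate numbers are not stated to pair the libraries. After subtraction of the group means, libraries with the same number correlated at -0.0274 to 0.0520 over 11078 genes, so the numbers were not treated as pairs. With the replicate block, 4227 genes and 5 of 8 members were called.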
